A study of Drosophila melanogaster with 2 samples.

Results

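The genes described here encode proteins of the Polycomb group, the trithorax group and the chromatin remodelling machinery of Drosophila melanogaster. They were chosen by name, as a list of 36 protein-coding genes out of 13968 on the main chromosome arms. Of these, 17 were Polycomb group genes, 12 were trithorax group genes, 4 encoded further remodellers and 3 encoded a histone deacetylase and proteins of heterochromatin. The gene symbol matched the annotation for 34 members, and 2 were matched through synonyms, calypso (annotated as caly) and lid (annotated as Kdm5). Ken is known as a repressor of part of the genes that respond to JAK-STAT signalling. The data were peak lists from chromatin immunoprecipitation with sequencing (ChIP-seq) of Ken, a protein with a BTB domain and zinc fingers, in 1 group of 2 biological replicates. The embryos were whole animals of 0 to 24 h of a ken-GFP strain, in which an insertion at ken yields a fusion with eGFP, and the fusion was precipitated with an antibody against GFP. Another field of the labels gives ken as the antibody. All embryos carried the fusion, all stages and cell types were mixed, and no control chromatin was analysed here.

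Polycomb group proteins keep developmental genes silent through cell division. Polycomb repressive complex 2 (PRC2) methylates histone H3, PRC1 compacts chromatin and ubiquitinates histone H2A, and the PhoRC complex binds DNA directly. Trithorax group proteins counteract this silencing by methylating other histone residues or by moving nucleosomes, as the Brahma complex does. In embryos these factors are supplied by the mother and then made in most tissues, and they maintain the expression pattern of the Hox genes.

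A promoter peak is counted here where the summit of a peak in the conservative list of both replicates lay within 1000 bp of any transcription start site (TSS) of the gene. The lists were thresholded on the IDR (irreproducible discovery rate), which is low where a peak ranks consistently high in both sets of peaks compared. Coordinates are on dm6. The signal is the authors' own value for each peak and has no stated scale. It ranks peaks within a list and does not show whether more was recovered in replicate 1 or in replicate 2. Read depth was unknown. The conservative list held 2031 peaks on the main arms, and the thresholded lists of replicates 1 and 2 held 1525 and 1738.

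Of the 36 members, 13 had a promoter peak, 36.1%, where 17.2% of all protein-coding genes had one. The signals of the strongest promoter peak of these 13 genes ranged from 86.4 to 375 with a median of 188, and the median over all 2400 protein-coding genes with a promoter peak was 153. The 13 genes held 15 such summits, because Asx and E(bx) had 2 each. Only 3 of the 15 summits lay inside the member gene itself, in ph-p, Su(z)12 and Utx, and 0 lay inside any member beyond 1000 bp of a TSS. The strongest summit was inside its own gene for 23.1% of these 13 members, and for 20.1% of all genes with a promoter peak. In the list of replicate 1 alone 9 members had a promoter peak, 25%, against 13.2% of all genes. In the list of replicate 2 alone 15 had one, 41.7%, against 16.3% of all genes.

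**Figure D1:**
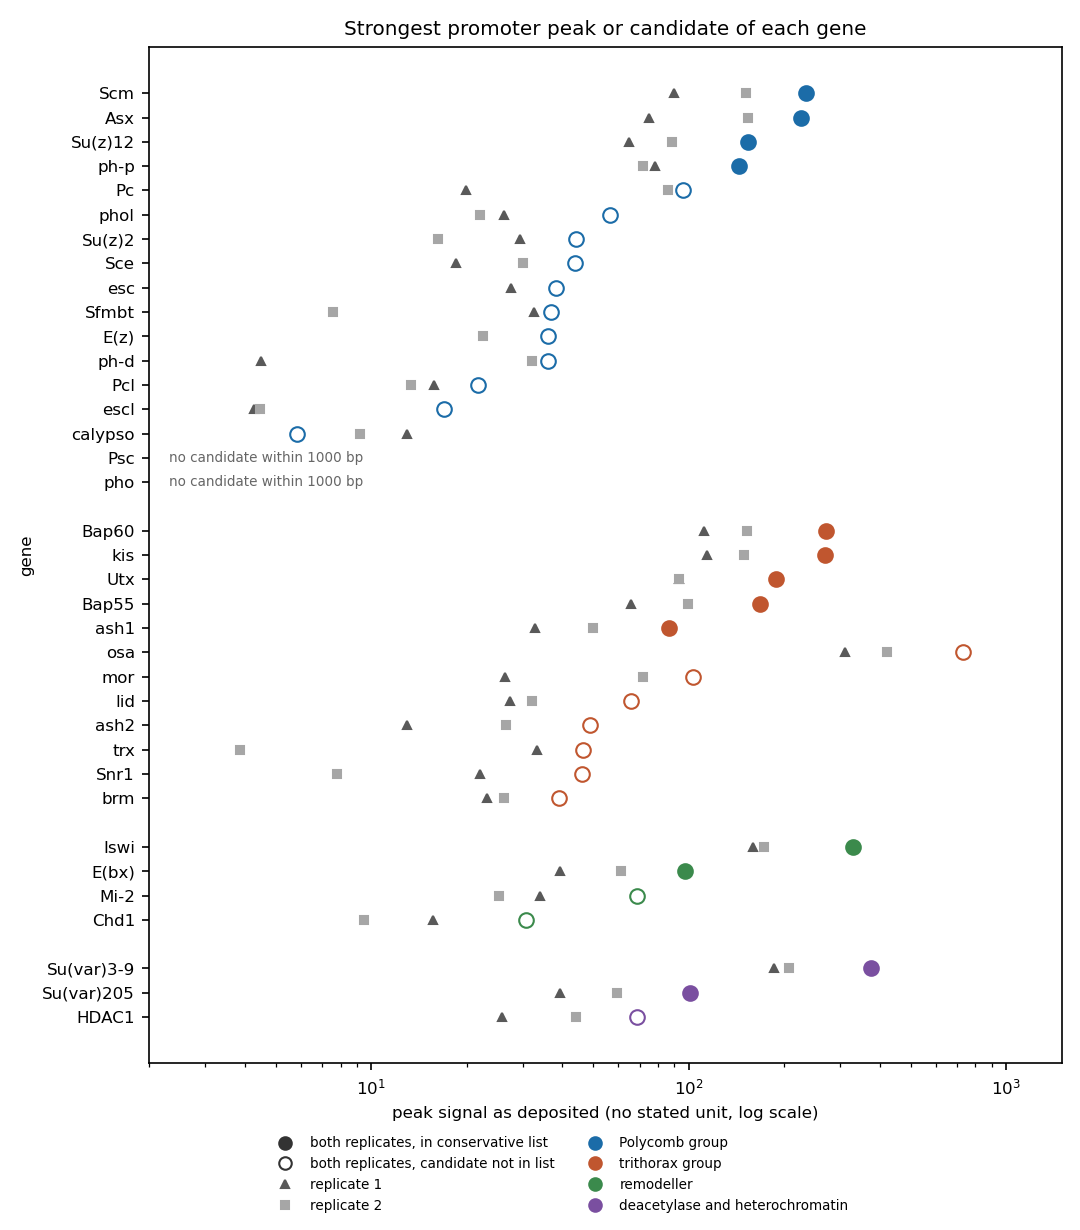
Signal of the strongest promoter peak (filled circle) or, where none was listed, of the strongest candidate within 1000 bp of a TSS (open circle), on a log axis, with the nearest candidate of each replicate within 200 bp of that summit. The filled circles run from 86.4 at ash1 to 375 at Su(var)3-9, and the open circle of osa, at 733, lies above all of them.

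The sequences below show the DNA at the summits of 6 members with a promoter peak and of 2 whose strong candidates were not listed. They are examples that hold the word CGATA, so they do not show how often it occurs at summits. The like stretch of Su(var)205 holds no full copy and is not shown. CGATA, which recurs at Ken peaks, stands in capitals in either orientation (TATCG on the printed strand is its complement). All are on the plus strand of the release 6 assembly, within 50 bp of the summit, and bases annotated as UTR were left out.

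Su(var)3-9, chr3R:15263473-15263551: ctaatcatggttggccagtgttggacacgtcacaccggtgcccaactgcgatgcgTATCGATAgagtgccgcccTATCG

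kis, chr2L:250879-250979: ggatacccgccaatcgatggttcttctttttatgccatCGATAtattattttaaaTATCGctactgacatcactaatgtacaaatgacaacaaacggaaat

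Scm, chr3R:9637612-9637705: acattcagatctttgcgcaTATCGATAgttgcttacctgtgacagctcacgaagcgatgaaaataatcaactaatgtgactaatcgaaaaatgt

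Utx, chr2L:10277552-10277622: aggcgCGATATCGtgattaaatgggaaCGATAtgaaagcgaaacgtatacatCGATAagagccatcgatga

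E(bx), chr3L:246993-247093: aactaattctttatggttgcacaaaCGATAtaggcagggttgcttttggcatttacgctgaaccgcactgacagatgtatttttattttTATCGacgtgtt

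ash1, chr3L:19598756-19598850: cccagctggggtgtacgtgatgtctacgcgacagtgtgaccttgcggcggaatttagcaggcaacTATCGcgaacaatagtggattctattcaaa

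osa, chr3R:17718353-17718453: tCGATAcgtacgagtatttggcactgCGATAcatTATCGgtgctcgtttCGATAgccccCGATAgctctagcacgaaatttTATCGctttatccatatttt

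mor, chr3R:15972930-15973030: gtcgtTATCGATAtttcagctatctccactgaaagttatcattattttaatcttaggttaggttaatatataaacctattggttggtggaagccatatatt

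Within 100 bp of the summit, a window wider than the printed stretch, osa and Su(var)3-9 had 8 copies of CGATA each. These were counted on both strands and include the printed copies. The mor stretch holds CGATA near its left end, in the 8 bp word TATCGATA. In Su(var)3-9 and Scm the word also forms part of TATCGATA, which is the DNA replication-related element (DRE), whereas in kis, Utx, E(bx) and ash1 the printed stretch holds CGATA without the full element. The ash1 stretch also holds, in lower case and as its complement, Motif 1 (GGTCACACT), a promoter word of Drosophila.

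Among Polycomb group genes, 4 of 17 had a promoter peak, 23.5%, against 17.2% of all genes. In the list of replicate 2 it was 6 of 17, 35.3%, against 16.3% of all genes, the 2 added genes being Pc and phol. In that of replicate 1 it was 4 of 17, against 13.2% of all genes. The 4 genes belonged to different complexes. In PRC2, 1 of 5 genes had a peak, Su(z)12, which encodes a core subunit. Its summit lay in a 5' UTR on 3L at 19923132 to 19923541, 125 bp downstream of the TSS. The signal was 154, with 65.1 for replicate 1 and 88.9 for replicate 2, and both replicates listed the peak. E(z), the methyltransferase of the complex, had no listed peak in either replicate, and its strongest candidate reached 36.2. That was the 86.1 percentile of the 146877 candidates of both replicates below the IDR threshold anywhere on the main arms. Every percentile given here is on that scale. The other PRC2 genes were esc, a WD40 protein, its paralog escl, and Pcl, a PHD finger protein. Their strongest candidates reached 38.3 for esc (percentile 88.7), 17.0 for escl (43.1) and 21.7 for Pcl (56.3). All 3 lay in coding exons, and none was listed in a replicate.

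Where 17.2% of all genes had a promoter peak, 1 of 6 PRC1 genes had one. This was ph-p, which encodes a SAM domain protein, with a summit on X at 2137682 to 2138091 in its 5' UTR, 484 bp downstream of a TSS. The signal was 144, with 78.4 for replicate 1 and 72.0 for replicate 2, and both replicates listed it. Its tandem copy ph-d had none. The strongest candidate near a TSS of ph-d reached 36.1 (percentile 86.1), and the nearest conservative summit was the ph-p peak itself, 14601 bp from a TSS of ph-d. The pair is a tandem duplication, so values at stretches that ph-p and ph-d share are uncertain. The sources used here do not state how reads with several matches were placed.

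Psc, which encodes a RING finger subunit, had 0 candidates of any rank within 1000 bp of a TSS in the ranked list of both replicates. In the ranked lists of each replicate alone it had none either. Its neighbour and paralog Su(z)2 had a candidate of 44.0 (percentile 93.8), 81 bp from a TSS, with 29.4 for replicate 1 and 16.2 for replicate 2. Sce, the ubiquitin ligase subunit, had a candidate of 43.7 (93.6) at 757 bp upstream.

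Pc, which encodes the chromodomain subunit that reads the mark made by PRC2, differed between the replicates. A candidate 1 bp from its TSS, on 3L at 21317816 to 21318225, had a signal of 96.0 (percentile 99.97). The TSS of Rab26 lay 753 bp away on the other side. The nearest candidate was 86.0 in replicate 2 and 19.9 in replicate 1. Replicate 2 listed the peak and so did the other thresholded list of both replicates. Replicate 1 and the conservative list did not, where its −log10 global IDR was 0.216 and a value of 2 was needed.

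Scm and the PR-DUB gene Asx had the strongest peaks of the Polycomb group. Scm encodes a SAM domain protein that links PRC1 and PhoRC. Its summit lay 44 bp upstream of the TSS, on 3R at 9637602 to 9637746. The signal was 234, with 90.04 for replicate 1 and 151 for replicate 2. The Asx summit, 8 bp upstream of a TSS on 2R at 14503839 to 14504033, had a signal of 225, with 75.0 for replicate 1 and 154 for replicate 2. Asx is the partner of the deubiquitinase calypso in PR-DUB. A second summit lay 608 bp upstream of Asx, in a coding exon, with 50.7. For calypso the strongest candidate reached 5.85 (percentile 9.73), lower than that of any other member with a candidate.

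Of the PhoRC genes 0 of 3 had a promoter peak in the conservative list, against 17.2% of all genes. The DNA-binding protein pho, encoded on chromosome 4, had 0 candidates within 1000 bp of its TSS in the ranked list of both replicates, and none in that of either replicate. Its paralog phol had a candidate of 56.5 (percentile 98.5), 4 bp from the TSS, which did not pass. The TSS of CG3552 lay 41 bp from this candidate. In replicate 2 alone phol had 2 listed summits, with signals of 34.2 and 21.9 at 170 and 32 bp, whereas replicate 1 listed none. Sfmbt, the MBT domain partner, had a candidate of 37.0 (percentile 87.1) at 4 bp from a TSS, with 32.6 for replicate 1 and 7.57 for replicate 2. A TSS of CG43925 lay 45 bp from the Sfmbt candidate.

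Of the 12 trithorax group genes, 5 had a promoter peak, 41.7%, against 17.2% of all genes. In the list of replicate 1, without replicate 2, it was 3 of 12, 25%, against 13.2% of all genes. Among the genes for histone methylation and demethylation these were ash1 and Utx, 2 of 5. The ash1 gene, for a histone methyltransferase, had a signal of 86.4 at 45 bp upstream of the TSS on 3L at 19598595 to 19599004. Its value was 32.8 for replicate 1 and 50.1 for replicate 2, and replicate 2 alone listed it. With a −log10 global IDR of 2.07, ash1 lay just inside the threshold, and its rank was 1549 of 2031.

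Utx, a histone demethylase that removes the mark made by E(z), had a summit 21 bp upstream of an internal TSS, on 2L at 10277367 to 10277776. Its signal was 188, with 93.2 for replicate 1 and 92.9 for replicate 2, and both listed it. At another TSS of Utx a summit of 84.1, 37 bp upstream, appeared in the other list of both replicates. There replicate 2 had 68.8 and listed the peak, whereas replicate 1 had 15.7 and did not. The remaining 3 genes had no listed summit. The strongest candidate of trx, the founding methyltransferase of the group, was 46.5 (percentile 95.4) at 574 bp upstream. For ash2, a subunit of the methyltransferase complexes, it was 48.9 (96.5), and it lay nearer to the TSS of puf, at 67 bp, than to that of ash2, at 149 bp. For lid, a demethylase, it was 65.9 (99.6) at 942 bp, and the TSS of Tsp26A was nearer, at 215 bp.

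The Brahma complex had listed promoter peaks at 2 of 6 genes, against 17.2% of all genes. The Bap60 summit lay on X at 13159499 to 13159908, 196 bp upstream of Bap60 and 100 bp inside the divergent gene CG12096. The signal was 270.4, with 112 for replicate 1 and 152 for replicate 2. Bap55, an actin-related subunit, had a summit 17 bp upstream of its TSS on 2R at 17430775 to 17431184. Its signal was 167, with 65.9 for replicate 1 and 99.6 for replicate 2, and replicate 2 alone listed it. The ATPase gene brm had a candidate of 39.1 (percentile 89.6) and Snr1 of 46.2 (95.2), both downstream of the TSS, and neither was listed in a replicate.

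The kis gene, which encodes a CHD family protein, had a summit 106 bp upstream on 2L at 250847 to 251001. Its signal was 269, with 114 for replicate 1 and 149 for replicate 2, and both listed it. No other protein-coding gene had a TSS within 1000 bp of the kis summit.

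The osa gene, for the ARID subunit that defines the BAP form of the Brahma complex, had the strongest candidate of all members and was in 0 of the 4 thresholded lists. The candidate lay on 3R at 17718252 to 17718606, 53 bp upstream of the only annotated TSS of osa. Its signal of 733 ranked 8 among all candidates on the main arms. In replicate 1 it was 309.7, rank 12, and in replicate 2 it was 422, rank 6. The −log10 global IDR was 5 in every ranked list, the highest value these lists reach. On the main arms 2112 candidates reached the IDR threshold of the conservative list, and 81 of them were not in it. The osa candidate had the highest signal of those 81. Its twin in each replicate had the highest signal among the 43 and 62 candidates that reached the threshold in replicates 1 and 2 and were not listed. The sources used here do not state which step removed these candidates.

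The mor gene, for a scaffold subunit of the same complex, was in a similar position. Its candidate 67 bp upstream, on 3R at 15972775 to 15973184, had a signal of 104 (percentile 99.98), with 26.3 for replicate 1 and 71.9 for replicate 2. It did not reach the conservative threshold, with a −log10 global IDR of 1.27. It reached the threshold in the ranked list of replicate 2 (3.58) and in the other ranked list of both replicates (2.52), and was in neither of the matching thresholded lists. With every candidate that reached the conservative threshold counted, listed or not, 14 members would have a promoter peak, and the added gene was osa. That rule was chosen after the osa value was seen, and 17.6% of all genes met it.

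Among the remodellers, 2 of 4 had a promoter peak, both in complexes of the ISWI ATPase, where 17.2% of all genes had one. In the list of replicate 1, without replicate 2, it was 1 of 4, against 13.2% of all genes, and at a global IDR of 0.001 it was 1 of 4, against 9.29%. Iswi encodes the ATPase itself, and its summit lay 40 bp upstream of the TSS on 2R at 12636542 to 12636731. The signal was 329, rank 163 of 2031, with 159 for replicate 1 and 172 for replicate 2, and both listed it. E(bx), the largest subunit of the NURF complex, had 2 summits upstream of its TSS on 3L. The nearer, at 131 bp, had a signal of 97.5, with 39.3 for replicate 1 and 61.0 for replicate 2. The other, at 351 bp, had 64.0. Replicate 2 alone listed a peak at E(bx). Chd1, a remodeller of the CHD family, had a candidate of 30.7 (percentile 77.4). Mi-2, the ATPase of the NuRD complex, had a candidate of 69.0 (99.7) at 994 bp, closer to the TSS of Su(Tpl), at 189 bp.

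Of the deacetylase and heterochromatin genes, 2 of 3 had a promoter peak, where 17.2% of all genes had one. In the list of replicate 1, without replicate 2, it was 1 of 3, against 13.2% of all genes, and at a global IDR of 0.001 it was 1 of 3, against 9.29%. With each summit given only to the nearest TSS it was 0 of 3, against 11.7%. Su(var)3-9, a histone methyltransferase of heterochromatin, had the highest listed signal of the 36 members. The summit lay 65 bp upstream on 3R at 15263377 to 15263624. Its signal was 375, rank 105 of 2031, with 186 for replicate 1 and 207 for replicate 2. Su(var)3-9 shares its annotated TSS with eIF2gamma, a translation initiation factor, and the divergent gene Set starts 29 bp from the summit. Su(var)205 encodes the heterochromatin protein HP1a, which binds the mark made by Su(var)3-9. Its summit lay 205 bp upstream on 2L at 8211122 to 8211531 and 20 bp from the TSS of the divergent gene Ssb-c31a. The signal was 101, with 39.4 for replicate 1 and 59.4 for replicate 2, and replicate 2 alone listed it. HDAC1, a deacetylase, had a candidate of 68.6 (percentile 99.7) that was nearer to Src64B, at 51 bp, than to HDAC1, at 487 bp.

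**Figure D2:**
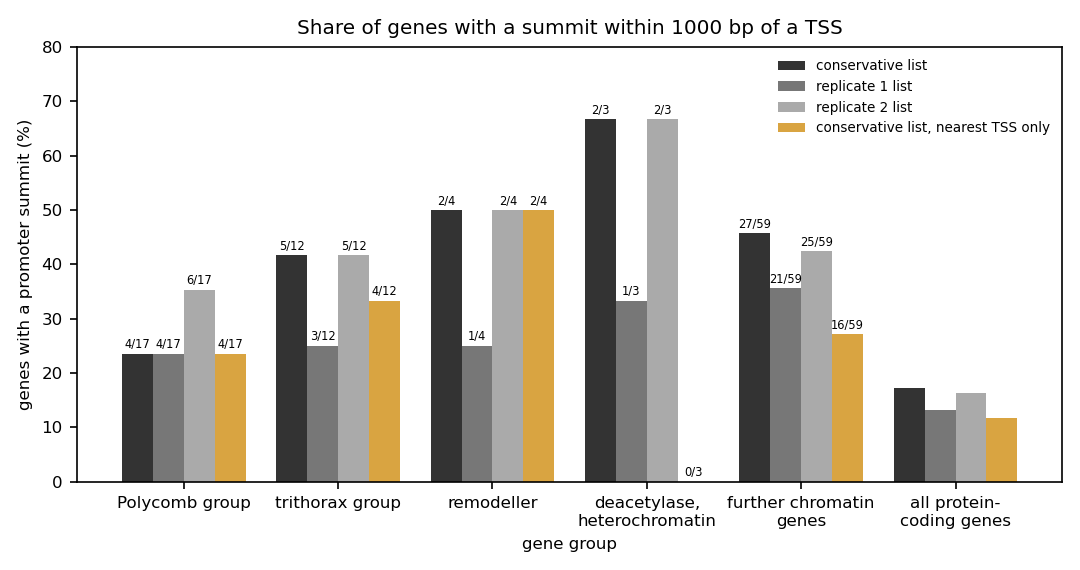
Percent of genes with a summit within 1000 bp of a TSS, by gene group, in the conservative list, in the list of each replicate and with each summit given only to the gene of the nearest TSS; numbers above the bars are genes with a summit over genes in the group. The bars of the Polycomb group stand at 23.5% in the conservative list, in replicate 1 and with the nearest TSS, and at 35.3% in replicate 2, where those of all genes stand at 17.2%, 13.2%, 11.7% and 16.3%, and the deacetylase and heterochromatin bar is 0 of 3 when only the nearest TSS counts.

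The classes held between 3 and 17 genes, so a single gene moved the shares of the smaller ones by much. Differences between classes or between complexes were not tested. With each summit given only to the gene of the nearest TSS, 10 members had a peak, 27.8%, against 11.7% of all genes. The 3 genes lost were Bap60, Su(var)3-9 and Su(var)205, each of whose summits lay nearer to a divergent neighbour. The Polycomb group count stayed at 4 of 17 and the remodeller count at 2 of 4.

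All 13 members with a conservative promoter peak were also in the list of replicate 2, and 9 of them were in that of replicate 1. The 4 that replicate 1 did not list were ash1, Bap55, E(bx) and Su(var)205. Pc and phol were listed by replicate 2 and were not in the conservative list. No member was listed by replicate 1 alone. At the 15 member summits, 9 had a listed summit of both replicates within 200 bp, 60%, against 60.1% of all 1731 conservative peaks within 1000 bp of a TSS. The replicate 2 signal exceeded that of replicate 1 at 11 of the 13 strongest peaks, and ph-p and Utx were the exceptions. This order is the usual one among the peaks: replicate 1 was higher at 525 of 1627 promoter peaks with a value in both.

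Of the 23 members without a listed peak, 21 had a candidate within 1000 bp of a TSS and 2, Psc and pho, had none. Over all 11568 protein-coding genes without a promoter peak, 1495 had no candidate. The median signal of the strongest candidate of the 21 members was 44.0, against 35.3 over all protein-coding genes that had a candidate and no promoter peak. It lay above the 90 percentile for 12 of the 21, 57.1%, against 38.8% of those genes. Each value is the strongest of the candidates of a gene, of which these members had up to 7, while the percentile is over single candidates. The strongest candidates closest to the needed −log10 global IDR of 2 without reaching it were those of Mi-2, lid, mor and HDAC1. Their values were 1.42, 1.36, 1.27 and 1.20. Those of Mi-2, lid and HDAC1 lay nearer to the TSS of another gene. No member without a promoter peak had a conservative summit close to the distance limit of 1000 bp. The nearest were 3678 bp from a TSS of ash2, with a signal of 86.7, and 3711 bp from the TSS of Snr1, with a signal of 203. That second summit was the promoter peak of HDAC3.

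**Figure D3:**
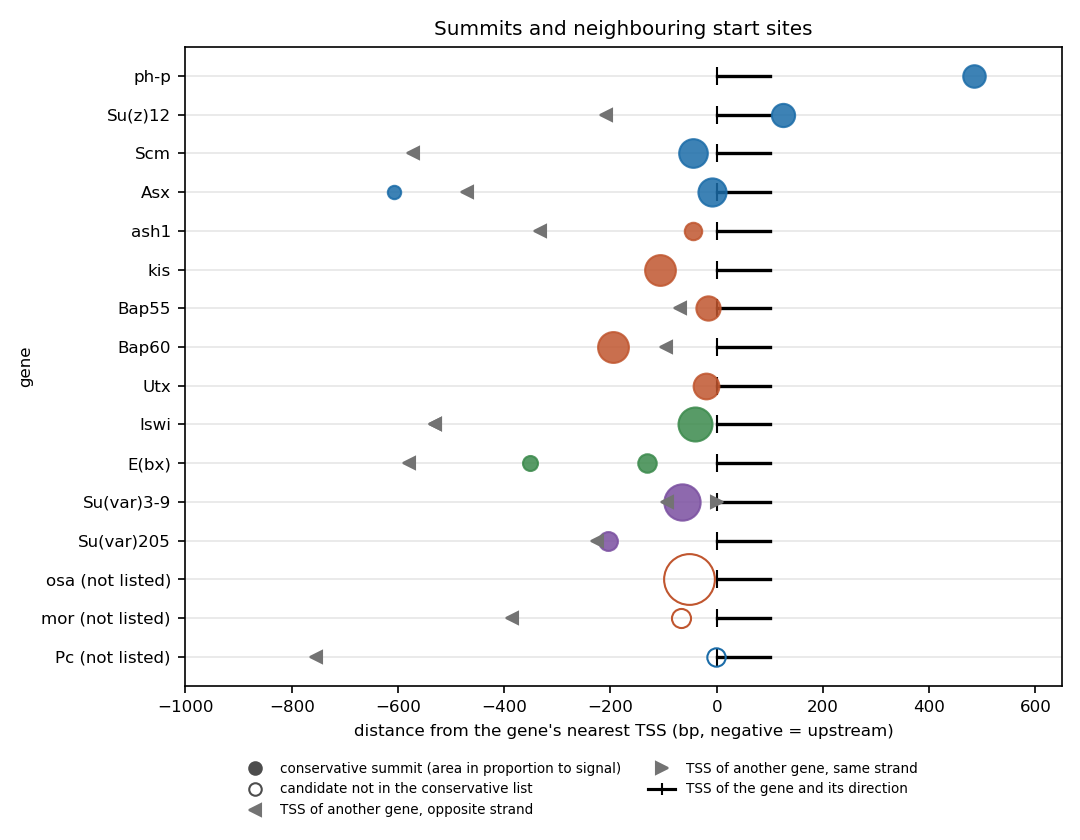
Summits (circles, area in proportion to signal) along each promoter, in bp from the nearest TSS of the gene, with TSSs of other protein-coding genes within 1000 bp of the summit (triangles pointing in the direction of transcription). Of the 13 strongest summits 11 lie upstream of the TSS, as do 2047 of 2400 over all genes with a promoter peak. The exceptions among the members are Su(z)12, at 125 bp, and ph-p, at 484 bp.

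Another protein-coding gene had a TSS within 1000 bp of the strongest summit for 10 of the 13 members, 76.9%, against 70.5% over all genes with a promoter peak. The 3 summits without such a neighbour were at ph-p, kis and Utx. The member's own TSS was the nearest for 10 of 13, 76.9%, against 64.9% over all genes with a promoter peak. The divergent partners included Taf6, a TFIID subunit, 288 bp from the ash1 summit, and Lhr, a heterochromatin protein, 52 bp from the Bap55 summit. Other partners were Pfdn6, a prefoldin subunit, 334 bp from the Su(z)12 summit, and Cpsf160, a cleavage and polyadenylation factor, 462 bp from the Asx summit. Dh44, a neuropeptide hormone, started 527 bp from the Scm summit, mthl14 448 bp from that of E(bx), and CG33672 and Mvk both 490 bp from that of Iswi. At the unlisted candidate of mor, Hel89B started 318 bp away. The median distance of the strongest summit to a TSS was 65 bp in the 13 members and 81 bp over all genes with a promoter peak. By annotation 9 of the 13 summits were intergenic, 3 were in a 5' UTR and 1 was in an intron. These features were not counted over all genes with a promoter peak. The 13 genes had a median length of 5221 bp, and the 23 members without a peak had 7137 bp. The median was 2976 bp over all genes with a promoter peak and 2164.5 bp over all protein-coding genes. A single TSS was annotated for 9 of the 13 and for 13 of the 23. It was so for 1510 of the 2400 genes with a promoter peak and for 10269 of all 13968. A gene with several TSSs has more windows in which a summit or a word is counted, and the effect on the shares was not tested.

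The word CGATA, sought on both strands, lay within 100 bp of 14 of the 15 member summits, 93.3%, against 82.5% of all conservative promoter peaks and 20.4% of candidates below the IDR threshold. Su(z)12 was the exception. Candidates below the threshold were taken from anywhere on the main arms, whereas the member summits and promoter peaks lay within 1000 bp of a TSS. At the 12 genes with the word near their strongest summit, the nearest copy was 6 to 23 bp from the summit. At osa it was 1 bp away, at Pc 10 bp and at mor 40 bp. The DRE, TATCGATA, which contains CGATA, lay within 100 bp of 5 of the 15 summits, 33.3%, against 33.1% of promoter peaks and 0.493% of candidates below the IDR threshold. These were the summits of Scm, Bap60, Iswi and Su(var)3-9 and the second summit of E(bx). Both words were chosen with earlier results of these data known.

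Other words known from Ken, Polycomb and trithorax work were counted in the same way. The Ken consensus, GNGAAAG or GNGAAAT, was near 3 of 15 summits (Scm, Iswi and the second of E(bx)), 20%, against 23.1% of promoter peaks and 25.2% of candidates below the IDR threshold. GCCAT, the core of the site read by pho and phol, was near 5 of 15, 33.3%. It was near 31.2% of promoter peaks and 39.9% of candidates below the IDR threshold. GAGAG, a site of the GAGA factor encoded by the trithorax group gene Trl, was near 0 of 15. It was near 16.6% of promoter peaks and 23% of candidates below the IDR threshold. These are counts of letters in a window and show no binding of any factor.

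Windows of 300 bp at each TSS, from 250 bp before to 50 bp after, allowed the members without a peak to be compared by sequence. CGATA was in such a window of 12 of the 13 members with a promoter peak, 92.3%, and of 13 of the 23 without, 56.5%. Over all genes the shares were 88.2% with a promoter peak and 45.7% without, and 53% in all. TATCGATA was in a window of 3 of 13 members with a peak, Iswi, Scm and Su(var)3-9, and of 3 of 23 without, osa, mor and Sfmbt. Over all genes the shares were 35.5% with a peak, 4.89% without and 10.2% in all. Of these 3 members without a listed peak, osa and mor were the genes whose candidates had reached a threshold without being listed.

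Motif 1, GGTCACACT, was in a window of 1 of 13 members with a peak, ash1, and of 7 of 23 without, 30.4%. The 7 were E(z), Pcl, Sce, trx, lid, Mi-2 and HDAC1. Over all genes the shares were 8.5% with a peak, 6.41% without and 6.77% in all. The Ken consensus was in a window of 7 of 13 and 6 of 23 members. Over all genes the shares for it were 42.5% with a peak, 39.7% without and 40.2% in all. GAGAG was in 3 of 13 and 8 of 23, with 31.9%, 37.1% and 36.2% over all genes in the same order. GCCAT was in 8 of 13 and 16 of 23, with 51.2%, 47.2% and 47.9%.

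**Figure D4:**
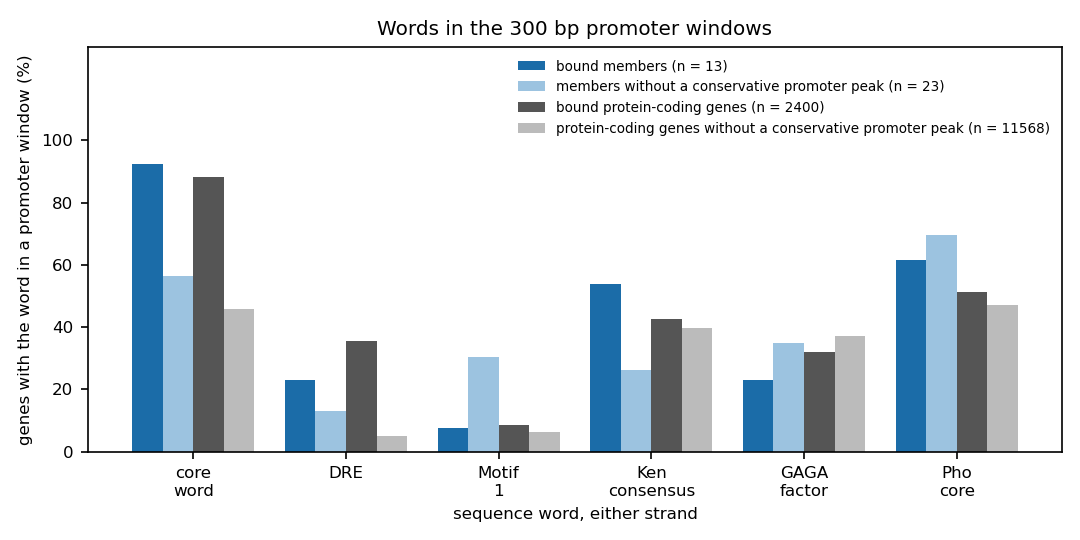
Percent of genes with each word in a 300 bp window at any TSS, for members with and without a promoter peak and for all protein-coding genes with and without one. The core word is in 92.3% of members with a promoter peak and 56.5% of those without, and Motif 1 is in 30.4% of members without a promoter peak.

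A wider list of 59 further chromatin genes was described by the same rule. Of these, 27 had a promoter peak, 45.8%, against 17.2% of all genes. With each summit given only to the nearest TSS, 16 had one, 27.1%, against 11.7% of all genes. Among genes of PRC1 variants and Polycomb associated factors it was 6 of 9, and in trithorax and COMPASS genes it was 6 of 12. A set of heterochromatin and deacetylase genes had 6 of 13, namely HP1b, HP4, Hmt4-20 and the deacetylase genes HDAC3, HDAC4 and HDAC6. Remodelling genes of the ISWI, INO80 and SWR1 type had 4 of 12 and NuRD genes 2 of 5. Other Brahma complex genes had 2 of 4 and genes associated with PRC2 1 of 4.

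The strongest was Spps, which encodes a DNA-binding protein of Polycomb response elements, with a signal of 476, rank 37 of 2031. It had 252 for replicate 1 and 222 for replicate 2. MTA1-like, a NuRD subunit, had 327, with 141 for replicate 1 and 175 for replicate 2. The COMPASS-associated gene Ptip had 306, with 148 for replicate 1 and 160 for replicate 2. HDAC6, a deacetylase, had 295, with 126 for replicate 1 and 174 for replicate 2. Ino80, the ATPase of the INO80 complex, had 267, with 113 for replicate 1 and 156 for replicate 2. At 4 of the 5 the summit lay nearer to the TSS of another gene. The Spps summit was 84 bp from Spps and 5 bp from CG13609, and that of MTA1-like was 307 bp from MTA1-like and 20 bp from Sec23. The HDAC6 summit was 120 bp from HDAC6 and 36 bp from CG9114, and that of Ino80 was 273 bp from Ino80 and 29 bp from Aptx. The Ptip summit was 55 bp from Ptip, with no other TSS within 1000 bp.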

How the data were processed

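Peak lists of 2 biological replicates were used, on dm6 per the labels. The deposited signal is the authors' value per peak. The deposited IDR score, at most 1000, served only to tie each thresholded list to its ranked list. The authors' ranked lists also hold −log10 of the global IDR, and its lowest value among conservative peaks was just above 2. The lists came from alignments, per the deposited notes. Aligner and peak caller: not given in the sources used here. Genes were Ensembl release 115 protein-coding genes, and sequence was the release 6 assembly. The signal of a replicate was that of its nearest candidate summit within 200 bp. The 16 further value columns of the 2 ranked lists of both replicates were not used. Analysis ran in Python 3.11.15 with pandas 2.3.3, and gene assignment was tested on simulated summits. Every member was to be named, and of further genes the 5 strongest. Members and lists were chosen with earlier results of these data known. With 1 group and no control there was no contrast between samples, so no test was made. Alternatives were other lists, windows, thresholds and assignments.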

Additional observations from a re-analysis of the deposited data

How the results depend on the processing

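The count of 13 members, against 17.2% of all genes, ranged from 9 (against 13.2%) to 15 (16.3%) when a replicate was left out. It was 14 (18.6%) in the other list, 10 (9.29%) at a global IDR of 0.001, 13 (15.4%) and 12 (13.4%) with TSS windows of 500 and 250 bp, 10 (11.7%) with the nearest TSS only and 13 (18.2%) with summits inside the gene added. Polycomb group counts ranged from 4 to 6 with a replicate left out and were 5 in the other list, 3 at 250 bp and 4 at 0.001 and with the nearest TSS only. Trithorax counts ranged from 3 to 5 with a replicate left out. Remodeller counts ranged from 1 to 2 with a replicate left out and were 1 at 0.001. Deacetylase and heterochromatin counts ranged from 1 to 2 with a replicate left out, were 1 at 0.001 and 0 with the nearest TSS only. Further chromatin genes numbered 16 (11.7% of all genes) with the nearest TSS only. The median signal of 188.5 was 78.4 in replicate 1 and 99.6 in replicate 2, whose scales may differ. The cause was not tested for any of these. No paired analysis was possible because the series has 1 group. Depth was unknown, so a missing peak is not shown to be absent binding.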
